A study of Oryza sativa with 6 samples.

Results

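Leaves of rice carrying a CRISPR-Cas9 knockout of the microRNA gene MIR171f (KO) were compared with leaves of nontransgenic rice (WT). The comparison takes 4 of the 6 libraries of the series, 2 KO and 2 WT, chosen by their labels. The other 2 libraries are from plants that overexpress MIR171f throughout the body (OX), and they share the fit, with their values given beside KO in places. All plants were 4 weeks old, had spent 3 days germinating on Murashige and Skoog medium at 28 °C and had then grown singly in soil pots in a greenhouse. Both KO libraries carry the line number 2, so the knockout is seen in 1 line. The labels do not say whether the 2 libraries of a genotype came from separate plants, and p-values therefore reflect nothing but the spread among these libraries, which may be technical. The labels state neither the lesion in the KO line nor the promoter behind the overexpression.

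MicroRNAs of the miR171 family pair with messenger RNAs for a subset of Scarecrow-like proteins, transcription factors of the plant-specific GRAS family, and guide their cleavage. In Arabidopsis these targets act in shoot branching, meristem activity and chlorophyll formation. A knockout of 1 gene of the family removes that gene's share of the mature microRNA, while other family members can still make it. The title of the series concerns drought tolerance and flavonoid genes.

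The expression table lists 7194 transcripts of 6535 genes, of which 7034 were tested. It is a selection by the authors: a transcript is listed where, in any of 3 comparisons, it changed 2-fold or more with a p before adjustment under 0.05. In the authors' deposited table, 3532 transcripts entered through KO against WT itself (2380 higher in KO and 1152 lower), 997 of them through it alone, so every count below is a count within a list that this contrast helped to choose. Listed reads came to 8452027 and 8802235 in KO, against 9739821 and 9294810 in WT. Levels are CPM, counts per 1000000 reads of the authors' effective library totals, which were 26078166 and 27349913 in KO, against 25823009 and 23869522 in WT. CPM is compared within a transcript only, since it grows with transcript length. Log2 fold changes are KO over WT with their standard errors (SE), and a transcript is called where its adjusted p from edgeR's quasi-likelihood test is below 0.05. None of the listed descriptions names a MIR171 precursor, so the edited gene gave no check of the labels. The tissue label was checked on leaf markers: the 41 tested photosynthesis transcripts summed to 88292 and 86692 CPM in KO, against 137234 and 145569 CPM in WT.

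More transcripts were called higher than lower in KO. Of 7034 tested, 1758 (25.0%) were called higher and 776 (11.0%) lower, and 4500 were not called. At least 2-fold differences made up 1521 of the higher calls (21.6% of those tested) and 517 of the lower ones (7.35%). Beyond 16-fold, 77 transcripts were higher and 7 lower. Leaving out 1 library moved the counts to 1112 higher and 433 lower without KO 1, to 1133 and 449 without KO 2, and to 1311 and 494 without WT 2. A total of 995 higher and 360 lower calls were made in each of the 6 fits that left out 1 library. The split depends on the scaling of the libraries: DESeq2 size factors gave 1111 higher and 1356 lower, TMM 1225 and 1237, and plain totals 2064 and 612. These scalings move every log2 fold change by -0.492, -0.399 and 0.195. Here and below, DESeq2 size factors and TMM were computed from the listed transcripts alone, which the authors had selected for change. They are therefore not scalings over the whole transcriptome. The median over all tested transcripts was 0.43 with the authors' totals, and list medians below are to be read against it. Of the calls, 1111 higher and 612 lower ones were made under all 3 alternative scalings.

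**Figure D1:**
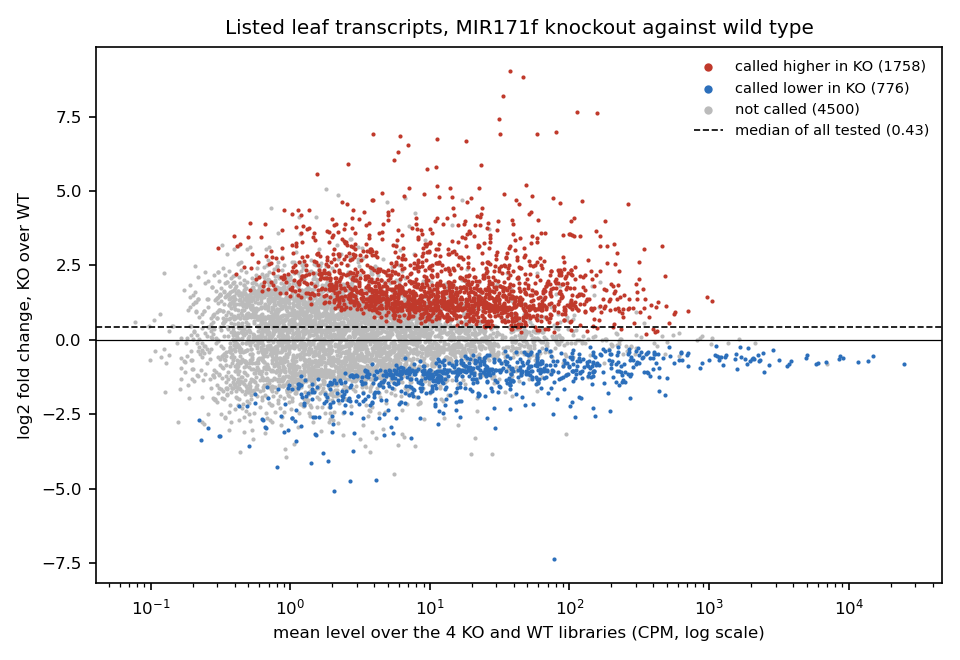
Each point is 1 of 7034 tested transcripts, with its mean level over the KO and WT libraries in CPM on a log axis and its log2 fold change, KO over WT. The 1758 called higher are red, the 776 called lower are blue, the dashed line is the median of 0.43, and the points furthest right lie below 0.

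Among the listed transcripts, those with the most reads were nearly all lower in KO. Sorted by mean CPM, which also reflects transcript length, 45 of the 52 tested transcripts above 1000 CPM were called lower (86.5%) and 1 higher. Of these 52, 24 belong to the photosynthesis list. The median log2 fold change of the 52 was -0.62, under 2-fold. Many of them could therefore be listed only through a comparison with OX. Abundant transcripts without a 2-fold change in any comparison are absent. Between 100 and 1000 CPM 135 were called higher and 141 lower of 340, and between 10 and 100 CPM 844 were higher and 324 lower of 1840. The rises lay among transcripts of low and middle read level. Calls were found on all 12 chromosomes, with 21.1% to 27.8% of tested transcripts higher and 9.68% to 14.8% lower.

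Scarecrow-like genes come first, since their transcripts are the family's known targets. Os06g0105350, similar to Scarecrow-like 6 (chromosome 6, 365289 to 366758), had 6.17 and 7.79 CPM in KO, against 22.1 and 24.9 CPM in WT (log2 fold change -1.75, SE 0.19, adjusted p = 0.00401). The groups did not overlap, as in 29.8% of all tested transcripts with KO below WT. Os02g0662700, similar to Scl1 (chromosome 2, 26841588 to 26844306), had 67.3 and 69.1 CPM in KO, against 66.6 and 60.6 CPM in WT (log2 fold change 0.10, SE 0.08, adjusted p = 1). Os10g0551200, also similar to Scl1 (chromosome 10, 21635191 to 21637744), had 15.1 and 14.5 CPM in KO, against 11.9 and 13.0 CPM in WT (log2 fold change 0.25, SE 0.16, adjusted p = 0.884). Neither Scl1-like transcript was called, although both KO libraries of each lay above both WT libraries, as in 49.5% of all tested transcripts. Their direction depends on the scaling: with DESeq2 size factors the log2 fold changes were -0.39 for Os02g0662700 and -0.24 for Os10g0551200, with adjusted p = 0.0524 and adjusted p = 0.897. In OX the 3 transcripts stood at 5.48 and 6.93 CPM, 31.1 and 34.5 CPM and 5.80 and 7.39 CPM, in that order.

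Calls in the wider GRAS family went both ways. Of 15 tested, 5 higher and 2 lower (1 leaving out KO 1, KO 2 or WT 2) calls were made, with a median of 0.65. Os07g0545800, similar to a chitin-inducible gibberellin-responsive protein, had 366 and 359.8 CPM in KO, against 63.6 and 60.8 CPM in WT (log2 fold change 2.54, SE 0.05, adjusted p = 4.38e-05). Os01g0842200, similar to Scarecrow-like 9, had 613 and 606 CPM in KO, against 241 and 259 CPM in WT (log2 fold change 1.28, SE 0.05, adjusted p = 0.000128). Os12g0573200, described only by its GRAS domain, had 85.6 and 81.6 CPM in KO, against 43.4 and 41.0 CPM in WT (log2 fold change 0.99, SE 0.07, adjusted p = 0.000709). In all 3, both KO libraries lay above both WT libraries, as in 49.5% of all tested transcripts. The second fall, beside the Scarecrow-like 6 gene, was Os01g0948200, with 6.29 and 6.76 CPM in KO, against 15.6 and 16.1 CPM in WT (log2 fold change -1.28, SE 0.18, adjusted p = 0.0109; not called: adjusted p 0.0574 to 0.0867 without KO 1, KO 2 or WT 2).

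The 12 largest rises among transcripts with an informative description included a branched-chain amino acid enzyme, leucine-rich repeat proteins, a kinase, a Tify protein and several regulators. Os12g0264500, similar to CHY1, a hydrolase of 3-hydroxyisobutyryl-coenzyme A in valine breakdown (chromosome 12, 9350914 to 9365572), had 69.2 and 63.5 CPM in KO, against 0.232 and 0.209 CPM in WT (log2 fold change 8.20, SE 0.46, adjusted p = 0.000615). Os01g0892800, an integrin-linked kinase domain protein (chromosome 1, 38818798 to 38822164), had 114 and 119 CPM in KO, against 0.891 and 1.05 CPM in WT (log2 fold change 6.90, SE 0.11, adjusted p = 4.38e-05). Os07g0112700, which carries a copper-binding cupredoxin domain (chromosome 7, 699881 to 700826), had 63.2 and 60.6 CPM in KO, against 0.465 and 0.251 CPM in WT (log2 fold change 7.41, SE 0.27, adjusted p = 0.00011). All 3 were close to silent in WT and well expressed in both KO libraries. Os11g0151400, a cytochrome P450, had 22.3 and 22.2 CPM in KO, against 0.232 and 0.168 CPM in WT (log2 fold change 6.76, SE 0.26, adjusted p = 0.000128). Os02g0251900, similar to a tobacco rattle virus-induced protein, had 11.0 and 12.2 CPM in KO, against 0.116 and 0.168 CPM in WT (log2 fold change 6.32, SE 0.35, adjusted p = 0.000372). WT levels of this transcript and of the CHY1-like one rest on few reads, so the sizes of their folds are imprecise. Os07g0154100, similar to Viviparous-14 of maize, a 9-cis-epoxycarotenoid dioxygenase that makes the precursor of abscisic acid, had 20.2 and 23.1 CPM in KO, against 0.349 and 0.419 CPM in WT (log2 fold change 5.80, SE 0.27, adjusted p = 0.000211). The transcription factors in this set were the bHLH gene Os04g0301500 (5.89), the Myb-related Os02g0187700 (5.73) and the CRT/DRE binding factor 1-like Os02g0677300 (5.20) on the log2 scale. In OX the CHY1-like transcript stood at 0.347 and 0.848 CPM, the kinase at 22.1 and 22.7 CPM and the P450 at 4.85 and 6.34 CPM.

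The remaining pair of the 12 are neighbours on chromosome 1. Os01g0162200 (chromosome 1, 3251426 to 3252724), a leucine-rich repeat protein, had 158 and 159 CPM in KO, against 1.12 and 1.34 CPM in WT (log2 fold change 7.0, SE 0.12, adjusted p = 4.38e-05). Os01g0162300 (chromosome 1, 3256822 to 3257901), also with leucine-rich repeats, had 223 and 229 CPM in KO, against 1.32 and 0.880 CPM in WT (log2 fold change 7.67, SE 0.20, adjusted p = 6.38e-05). The next listed transcripts along the chromosome, looked at after these values were seen, moved the same way. Os01g0162400 (chromosome 1, 3257944 to 3258889), a conserved hypothetical protein, had 92.6 and 92.5 CPM in KO, against 0.310 and 0.0838 CPM in WT (log2 fold change 8.82, SE 0.40, adjusted p = 0.000333). Its WT levels rest on few reads, so the size of its fold is imprecise. Os01g0162500 (chromosome 1, 3259516 to 3262661), a leucine-rich repeat protein, had 2.22 and 2.12 CPM in KO, against 0.387 and 0.461 CPM in WT (log2 fold change 2.35, SE 0.27, adjusted p = 0.0049). All 4 were also above WT in OX, where they stood at 18.2 and 16.8 CPM, 21.6 and 19.3 CPM, 5.76 and 4.91 CPM and 3.53 and 3.16 CPM. Between KO and OX, the first of them was higher in KO (log2 fold change 3.18, adjusted p = 8.7e-05) and so was the second (3.47, adjusted p = 0.000266).

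**Figure D2:**
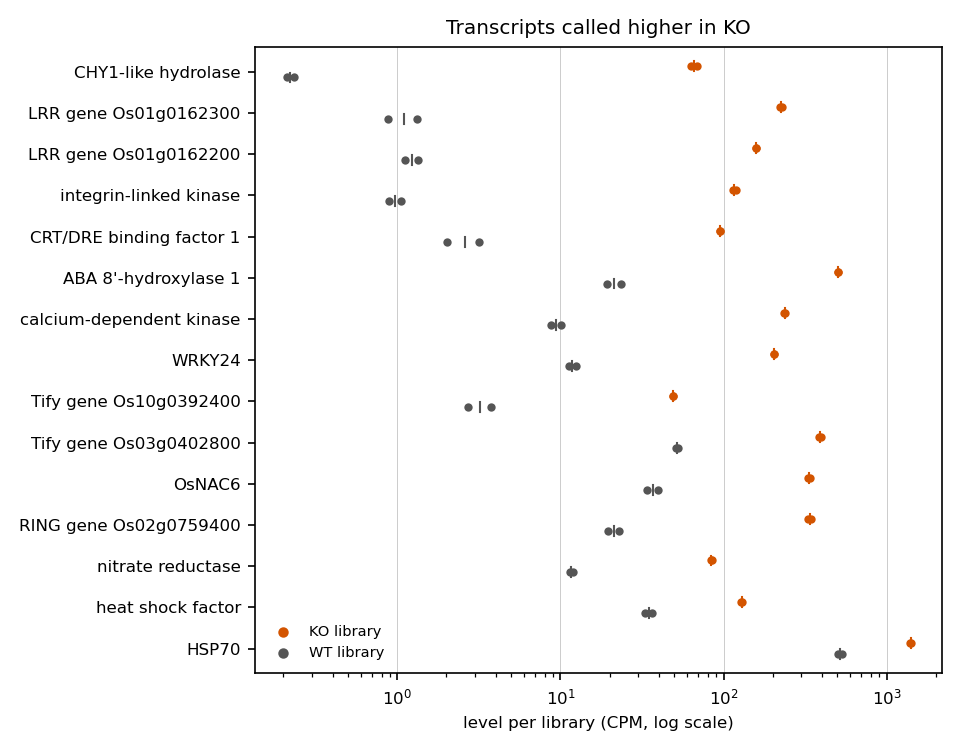
Each row is 1 transcript called higher in KO, with its level in each library in CPM on a log axis, KO libraries in orange above WT libraries in grey, and a tick at each group's mean. The CHY1-like hydrolase stands at 69.2 and 63.5 CPM in KO, against 0.232 and 0.209 CPM in WT. In no row do the 2 groups overlap, which follows largely from choosing rows among called transcripts. Over all tested transcripts, 49.5% had both KO libraries above both WT libraries.

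Among the 12 largest falls, single transcripts of genes with several transcripts stood out, and the Smr domain gene and Os01g0800300 are taken up with the transcript variants below. Transcript 02 of Os02g0830100, similar to oligopeptidase A, had 0.192 and 0.183 CPM in KO, against 5.23 and 5.03 CPM in WT (log2 fold change -4.74, SE 0.29, adjusted p = 0.000503). Transcript 03 of Os02g0590400, of the lecithin:cholesterol acyltransferase family, had 0.652 and 0.512 CPM in KO, against 4.41 and 5.82 CPM in WT (log2 fold change -3.13, SE 0.26, adjusted p = 0.00148). Both were nearly absent from the KO libraries. Os08g0247600, with a leucine-rich repeat N-terminal domain (chromosome 8, 9001801 to 9005304), had 31.3 and 31.8 CPM in KO, against 194 and 182 CPM in WT (log2 fold change -2.58, SE 0.06, adjusted p = 4.52e-05). The glycosyltransferase Os07g0489200, of a family that attaches sugars to hormones and secondary metabolites, had 1.46 and 1.24 CPM in KO, against 12.7 and 13.8 CPM in WT (log2 fold change -3.29, SE 0.20, adjusted p = 0.000509). Os08g0446800, similar to GDU1, a regulator of amino acid export in Arabidopsis, had 1.27 and 1.21 CPM in KO, against 8.67 and 9.97 CPM in WT (log2 fold change -2.91, SE 0.23, adjusted p = 0.00125). In these 3, both KO libraries lay below both WT libraries, as in 29.8% of all tested transcripts. Os01g0369900, similar to 12-oxo-phytodienoic acid reductase 6, had 4.79 and 4.57 CPM in KO, against 28.6 and 27.3 CPM in WT (log2 fold change -2.58, SE 0.12, adjusted p = 0.000206). The other 4, with their log2 fold changes, were Os05g0582000, a plant basic secretory protein (-2.62), Os05g0475700 with a nodulin-like domain (-2.61), Os04g0526800 with a GRAM domain (-2.61; not called: adjusted p 0.0637 without KO 2) and Os10g0483500, an FAD-linked oxidase (-2.62).

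Jasmonate genes were called higher far more often than lower, mostly through the Tify family. Jasmonate is an oxylipin hormone of wounding and defence, and Tify proteins include the JAZ repressors that its signal removes and whose genes it induces. Of 27 tested members, 17 higher and 1 lower (2 leaving out KO 2, OX 1 or OX 2) calls were made, with a median of 1.37. Of 11 tested Tify-type transcripts, 11 higher (7 leaving out KO 1, WT 1, OX 1 or OX 2) and 0 lower calls were made, with a median of 2.35. With DESeq2 size factors the higher calls were 8 of the 11. These Tify transcripts are all among the 27 and make up 11 of its 17 higher calls. The 27 together held 3024.5 and 3034.1 CPM in KO, against 3804.8 and 4177.0 CPM in WT. Os03g0402800 (chromosome 3, 16407699 to 16410007) had 394 and 383 CPM in KO, against 52.6 and 50.8 CPM in WT (log2 fold change 2.91, SE 0.05, adjusted p = 4.38e-05). Os10g0392400 (chromosome 10, 13069770 to 13070894) had 48.9 and 49.0 CPM in KO, against 2.71 and 3.73 CPM in WT (log2 fold change 3.93, SE 0.17, adjusted p = 0.000175). Os10g0391400 had 117 and 155 reads in KO, against 2 and 2 reads in WT, too few in WT for a fold to be given.

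The enzymes that make jasmonate were divided. Of 17 tested oxylipin enzymes, 6 higher and 2 lower calls were made. All but Os01g0369900, which was called lower, also belong to the jasmonate list above. The chloroplast lipoxygenase Os08g0508800 had 104 and 107 CPM in KO, against 9.06 and 12.4 CPM in WT (log2 fold change 3.30, SE 0.20, adjusted p = 0.000619). The lipoxygenase Os05g0304600 had 282 and 277 CPM in KO, against 85.1 and 89.8 CPM in WT (log2 fold change 1.68, SE 0.07, adjusted p = 0.00013). The member with the highest CPM went the other way. Os02g0194700, similar to the chloroplast lipoxygenase 2.3 of barley, had 1588 and 1614 CPM in KO, against 3254 and 3521 CPM in WT (log2 fold change -1.08, SE 0.07, adjusted p = 0.000681). An allene oxide synthase, Os03g0767000, which takes the next step, had 11.0 and 11.6 CPM in KO, against 3.76 and 3.94 CPM in WT (log2 fold change 1.55, SE 0.26, adjusted p = 0.02; not called: adjusted p 0.0916 to 0.113 without KO 1, KO 2, WT 1 or WT 2, 0.0713 with DESeq2 size factors and 0.0521 with TMM). Transcript 02 of Os03g0438100, an allene oxide cyclase, was not called, with 5.45 and 16.3 CPM in KO, against 15.4 and 19.4 CPM in WT (log2 fold change -0.67, SE 0.52, adjusted p = 1; called: adjusted p 0.0355 without KO 2). Its 2 KO libraries lay far apart, and without KO 2 it was called lower.

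Transcription factor families of stress responses rose far more often than they fell. WRKY factors, which bind W-box sequences of defence genes, gave 26 higher (17 leaving out KO 1) and 2 lower (0 leaving out KO 1 or KO 2, 1 leaving out WT 1) calls of 42 tested, with a median of 1.48. WRKY24, Os01g0826400 (chromosome 1, 35347982 to 35350546), had 205 and 204 CPM in KO, against 12.4 and 11.3 CPM in WT (log2 fold change 4.11, SE 0.09, adjusted p = 4.52e-05). WRKY53, Os05g0343400, the member with the highest CPM, had 524 and 514 CPM in KO, against 154 and 163 CPM in WT (log2 fold change 1.71, SE 0.07, adjusted p = 0.000128). One fall was WRKY30, Os08g0499300, with 6.14 and 5.92 CPM in KO, against 14.8 and 11.5 CPM in WT (log2 fold change -1.12, SE 0.17, adjusted p = 0.0134; not called: adjusted p 0.0532 to 0.102 without KO 1, KO 2 or WT 1). The other fall was the WRKY5-like Os05g0137500, with 1.07 and 1.28 CPM in KO, against 3.80 and 3.90 CPM in WT (log2 fold change -1.70, SE 0.23, adjusted p = 0.00953; not called: adjusted p 0.0707 without KO 1 and 0.0509 without KO 2). NAC factors gave 15 higher and 1 lower (0 leaving out KO 1, KO 2 or WT 2) calls of 29 tested, median 1.16 (13 and 3 with DESeq2 size factors). Os03g0815100, similar to OsNAC6, a stress-induced factor of rice (chromosome 3, 34166100 to 34167521), had 328 and 338 CPM in KO, against 34.0 and 39.8 CPM in WT (log2 fold change 3.17, SE 0.09, adjusted p = 6.38e-05).

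MYB members gave 12 higher and 1 lower (0 leaving out WT 1 or WT 2) calls of 35 tested (10 and 5 with DESeq2 size factors). Os07g0484700, with a Myb domain, had 94.4 and 98.4 CPM in KO, against 16.2 and 17.7 CPM in WT (log2 fold change 2.51, SE 0.07, adjusted p = 7.15e-05). The bHLH family gave 12 higher and 4 lower calls of 27 (9 and 7 with DESeq2 size factors). Among its rises was Os03g0741100, with 101 and 95.9 CPM in KO, against 9.26 and 8.13 CPM in WT (log2 fold change 3.50, SE 0.09, adjusted p = 6.19e-05). AP2/ERF factors, which include the cold and drought regulators and the ethylene response factors, gave 11 higher and 6 lower (3 leaving out KO 1 or WT 2) calls of 28, median 0.41 (8 and 10 with DESeq2 size factors). Os02g0677300, similar to CRT/DRE binding factor 1, a regulator of cold responses (chromosome 2, 27652935 to 27654206), had 95.1 and 95.3 CPM in KO, against 2.01 and 3.18 CPM in WT (log2 fold change 5.20, SE 0.23, adjusted p = 0.000221). The abiotic stress factor Os02g0654700 had 36.7 and 39.0 CPM in KO, against 3.37 and 3.31 CPM in WT (log2 fold change 3.50, SE 0.11, adjusted p = 8.3e-05). The EAR-motif repressor Os01g0797600 was lower, with 21.7 and 22.6 CPM in KO, against 53.6 and 61.0 CPM in WT (log2 fold change -1.37, SE 0.09, adjusted p = 0.000755). So was Os05g0121600, described under starch synthesis, with 283 and 281 CPM in KO, against 371 and 366 CPM in WT (log2 fold change -0.39, SE 0.04, adjusted p = 0.00294).

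Many calcium signalling genes rose. Calcium sensors and their kinases pass on calcium pulses that follow cold, wounding and microbial patterns. Of 88 tested calcium and calmodulin transcripts, 43 higher and 5 lower (3 leaving out WT 2) calls were made, with a median of 1.25 (36 and 11 with DESeq2 size factors). The calcium-dependent protein kinase Os02g0126400 (chromosome 2, 1387885 to 1394273) had 239.7 and 235 CPM in KO, against 8.71 and 10.1 CPM in WT (log2 fold change 4.65, SE 0.10, adjusted p = 4.52e-05). Os01g0570800, with a calmodulin-binding IQ region, had 378 and 376 CPM in KO, against 74.4 and 76.9 CPM in WT (log2 fold change 2.32, SE 0.05, adjusted p = 4.52e-05). CBL-interacting kinases, which calcineurin B-like sensors activate, held all 5 of the list's lower calls, with 1 higher and 5 lower (3 leaving out WT 2) calls of 11 tested. Os01g0206700, the kinase 20-like member, had 32.5 and 32.2 CPM in KO, against 133 and 125 CPM in WT (log2 fold change -2.0, SE 0.08, adjusted p = 0.000161). The one higher call was Os03g0319400, similar to CBL-interacting protein kinase 3, with 310.0 and 314 CPM in KO, against 111 and 98.1 CPM in WT (log2 fold change 1.58, SE 0.09, adjusted p = 0.00048).

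Many genes of pathogen recognition rose as well. The KEGG map of plant-pathogen interaction gave 33 higher and 3 lower (0 leaving out KO 1 or KO 2, 1 leaving out WT 1 or WT 2) calls of 51 tested, with a median of 1.47. It shares 15 transcripts with the calcium list, 29.4% of the map and 17.0% of that list. The plant MAPK map gave 23 higher and 3 lower (1 leaving out KO 1 or KO 2) calls of 40 (21 and 6 with DESeq2 size factors). NB-ARC proteins, the intracellular immune receptors, gave 27 higher (17 leaving out KO 1, WT 1 or WT 2, 16 leaving out KO 2) and 4 lower (2 leaving out KO 1, WT 1 or WT 2) calls of 81 tested, median 0.83 (16 and 8 with DESeq2 size factors). Os04g0514600, of the NBS-LRR type (chromosome 4, 25708429 to 25712602), had 82.3 and 76.4 CPM in KO, against 3.02 and 3.02 CPM in WT (log2 fold change 4.71, SE 0.10, adjusted p = 4.52e-05). Os11g0226933 had 138 and 149 CPM in KO, against 31.6 and 28.2 CPM in WT (log2 fold change 2.27, SE 0.09, adjusted p = 0.000151). Leucine-rich repeat, receptor and lectin proteins gave 55 higher (35 leaving out KO 1, 36 leaving out KO 2) and 13 lower (7 leaving out KO 1, 6 leaving out KO 2) calls of 170 (34 and 21 with DESeq2 size factors). The higher calls were 33.3% of the NB-ARC list and 32.4% of the receptor list, beside 25.0% over all tested transcripts and 61.9% of the WRKY list. Such genes lie in clusters of similar copies, and reads may be shared between copies in the authors' counting. Other protein kinases gave 103 higher (66 leaving out KO 1) and 19 lower calls of 274 (68 and 28 with DESeq2 size factors).

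Proteins made in defence were called higher more often than lower, while ubiquitin-system proteins lay near the background. Chitinases, thaumatin-like proteins, glucanases and protease inhibitors gave 18 higher and 3 lower (0 leaving out KO 1, KO 2 or WT 2, 1 leaving out WT 1, OX 1 or OX 2) calls of 46 tested, median 0.89 (14 and 5 with DESeq2 size factors). A chitinase, Os02g0605900, had 127 and 124 CPM in KO, against 34.2 and 29.0 CPM in WT (log2 fold change 1.99, SE 0.12, adjusted p = 0.000501). A Kunitz-type inhibitor, Os09g0115500, had 157 and 152 CPM in KO, against 62.6 and 64.6 CPM in WT (log2 fold change 1.28, SE 0.06, adjusted p = 0.000201). RING, U-box and F-box proteins of the ubiquitin system gave 41 higher (21 leaving out KO 1, 24 leaving out KO 2) and 17 lower (6 leaving out KO 1, 10 leaving out KO 2, 9 leaving out WT 1) calls of 140 (21 and 23 with DESeq2 size factors). These higher and lower calls were 29.3% and 12.1% of the list, close to the 25.0% and 11.0% over all tested transcripts. The RING-type gene Os02g0759400 had 344 and 331 CPM in KO, against 19.6 and 22.7 CPM in WT (log2 fold change 3.99, SE 0.11, adjusted p = 6.38e-05). Os01g0719100, a RING and CHY zinc finger protein, had 528 and 564 CPM in KO, against 92.4 and 83.9 CPM in WT (log2 fold change 2.63, SE 0.08, adjusted p = 8.3e-05).

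**Figure D3:**
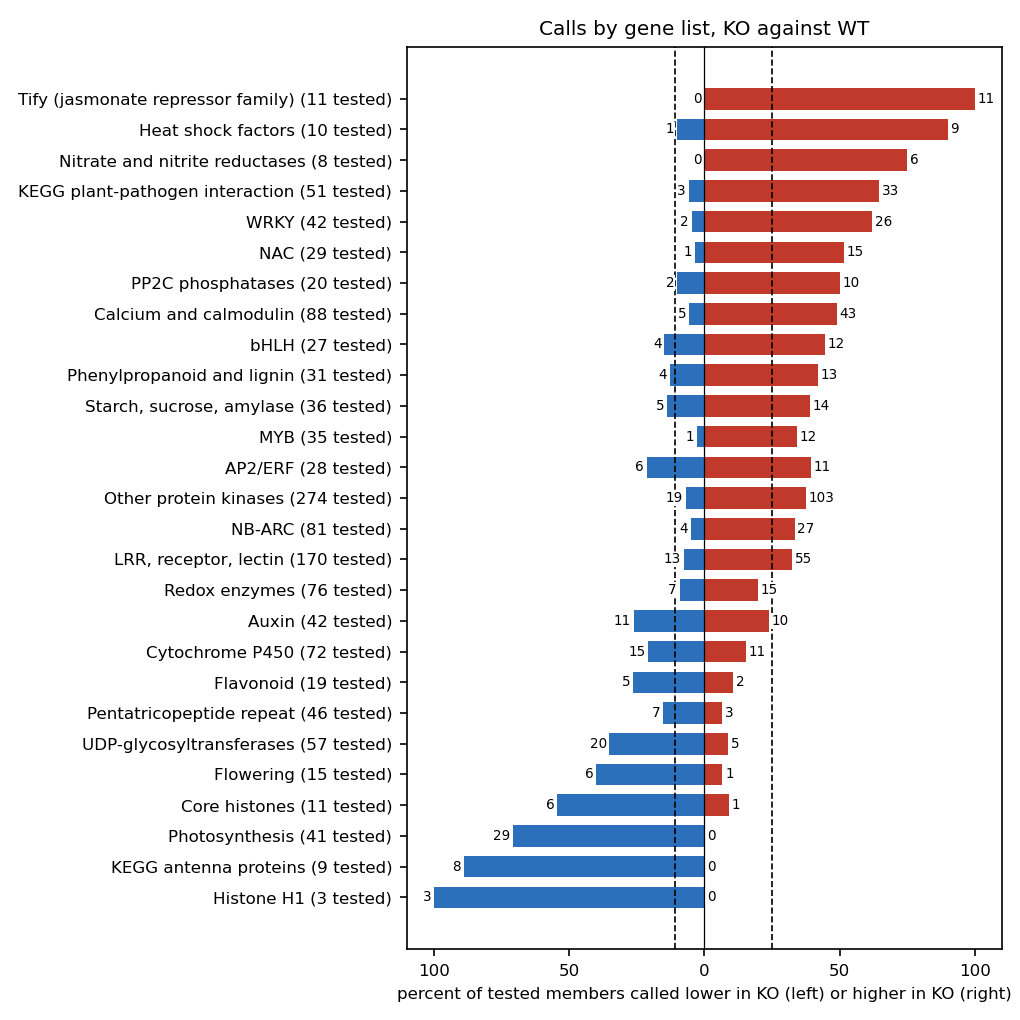
Bars give the percent of each list's tested members called lower in KO (left, blue) and higher in KO (right, red), with the number called at the end of each bar. Dashed lines mark the shares over all tested transcripts, 11.0% lower and 25.0% higher. WRKY has 26 higher and 2 lower, photosynthesis 0 higher and 29 lower.

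Among abscisic acid genes a catabolic enzyme rose strongly, as did the Viviparous-14-like Os07g0154100 of synthesis, given above and outside the list used here. Abscisic acid is the hormone of water deficit, broken down by 8'-hydroxylases and sensed through protein phosphatases 2C and SnRK2 kinases. Of 12 tested, 6 higher and 1 lower (0 leaving out KO 1, KO 2, WT 1 or WT 2) calls were made, median 1.01 (4 and 3 with DESeq2 size factors and 6 and 0 with plain totals). Abscisic acid 8'-hydroxylase 1, Os02g0703600 (chromosome 2, 28995717 to 28998452), had 502 and 500.3 CPM in KO, against 19.3 and 23.4 CPM in WT (log2 fold change 4.55, SE 0.11, adjusted p = 5.82e-05). The kinase SAPK2, Os07g0622000, had 147 and 139 CPM in KO, against 34.3 and 29.1 CPM in WT (log2 fold change 2.18, SE 0.11, adjusted p = 0.000241). Os02g0766700, similar to a factor that binds abscisic acid responsive elements, had 80.4 and 75.8 CPM in KO, against 24.0 and 22.3 CPM in WT (log2 fold change 1.76, SE 0.07, adjusted p = 0.000158). The fall was transcript 02 of Os05g0592800, similar to ABI2, with 13.2 and 9.91 CPM in KO, against 32.4 and 24.4 CPM in WT (log2 fold change -1.30, SE 0.26, adjusted p = 0.0376; not called: adjusted p 0.0673 to 0.192 without KO 1, KO 2, WT 1 or WT 2, 0.06 with plain totals and 0.088 with the replicate block). Over all 20 tested protein phosphatases 2C, 10 higher (6 leaving out KO 1 or KO 2) and 2 lower (1 leaving out KO 1, KO 2, WT 1 or WT 2) calls were made. The one furthest from WT, Os12g0198200, had 20.6 and 23.2 CPM in KO, against 0.542 and 0.670 CPM in WT (log2 fold change 5.17, SE 0.21, adjusted p = 0.000151). Transcript 03 of the ABI2-like Os05g0592800 went the opposite way to its transcript 02 and was not called. It had 21.2 and 18.8 CPM in KO, against 6.7 and 12.4 CPM in WT (log2 fold change 1.07, SE 0.31, adjusted p = 0.15). The fall of transcript 02 is therefore no fall of the whole gene.

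Late embryogenesis abundant proteins and dehydrins, which protect cells during drying, gave 3 higher and 0 lower calls of 10 tested (2 and 1 with DESeq2 size factors). Higher calls were thus 30.0% of that list, beside 25.0% over all tested transcripts. The dehydrin Os02g0669100 had 152 and 144 CPM in KO, against 61.0 and 54.9 CPM in WT (log2 fold change 1.35, SE 0.07, adjusted p = 0.000319). Heat shock and chaperone transcripts gave 21 higher and 9 lower (5 leaving out KO 1) calls of 64, median 0.64 (19 and 13 with DESeq2 size factors). Within them the heat shock transcription factors stood out by number, with 9 higher and 1 lower (0 leaving out KO 1 or KO 2) calls of 10, and the same counts with DESeq2 size factors. Os02g0527300, similar to heat shock factor 31, had 129 and 131 CPM in KO, against 36.5 and 33.2 CPM in WT (log2 fold change 1.90, SE 0.07, adjusted p = 0.000103). The factor A-2d-like Os03g0161900 had 369 and 358 CPM in KO, against 172 and 174 CPM in WT (log2 fold change 1.07, SE 0.05, adjusted p = 0.000161). The only lower one, Os01g0625300, had 0.192 and 0.183 CPM in KO, against 1.59 and 2.43 CPM in WT (log2 fold change -3.39, SE 0.46, adjusted p = 0.00947; not called: adjusted p 0.0721 without KO 1 and 0.0763 without KO 2). The heat shock protein 70 gene Os03g0276500 (chromosome 3, 9370160 to 9373067) had 1408 and 1398 CPM in KO, against 502 and 530.3 CPM in WT (log2 fold change 1.44, SE 0.04, adjusted p = 6.81e-05). A mitochondrial heat shock protein 70, Os03g0113700, had 36.2 and 33.6 CPM in KO, against 68.7 and 64.3 CPM in WT (log2 fold change -0.93, SE 0.07, adjusted p = 0.00119).

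Redox enzymes were close to the background in both directions, with 15 higher and 7 lower calls of 76 tested (10 and 16 with DESeq2 size factors). Os04g0435500, with a glutathione S-transferase domain, had 59.8 and 65.0 CPM in KO, against 10.8 and 10.9 CPM in WT (log2 fold change 2.52, SE 0.08, adjusted p = 9.08e-05). Glutathione transferase 35, Os10g0529700, had 14.0 and 14.5 CPM in KO, against 36.9 and 36.9 CPM in WT (log2 fold change -1.37, SE 0.08, adjusted p = 0.000503).

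Most photosynthesis genes were lower. The list holds chlorophyll-binding antenna proteins, photosystem subunits, Rubisco activase and the Calvin cycle enzyme phosphoribulokinase. Of 41 tested, 0 higher and 29 lower calls were made, with a median of -0.60 and 25 to 33 lower calls under the 3 other scalings. Rubisco activase, transcript 02 of Os11g0707000 (chromosome 11, 28932985 to 28936031), had 18511 and 17378 CPM in KO, against 31828 and 31382 CPM in WT (log2 fold change -0.82, SE 0.06, adjusted p = 0.000982). Outside the list, a Rubisco small subunit, Os12g0274700, had 10614 and 10221 CPM in KO, against 16831 and 17340.0 CPM in WT (log2 fold change -0.71, SE 0.04, adjusted p = 0.000379). The photosystem II antenna gene Os03g0592500 had 8880.3 and 8760.2 CPM in KO, against 14287 and 15067 CPM in WT (log2 fold change -0.73, SE 0.05, adjusted p = 0.00063). Both KO libraries lay below both WT libraries in each, by well under 2-fold, as they did by any amount in 29.8% of all tested transcripts. The 22 kDa protein of photosystem II, Os04g0690800, which dissipates excess light energy, had 34.0 and 35.3 CPM in KO, against 80.9 and 91.4 CPM in WT (log2 fold change -1.31, SE 0.08, adjusted p = 0.00058). In OX the first 3 were lower still, at 16124 and 14515 CPM, 6422 and 6709.8 CPM and 5110.2 and 5479 CPM, while the 22 kDa protein stood at 78.7 and 73.6 CPM, above KO. In KO against OX, 29 of the 41 were called higher in KO, beside 25.0% of all tested transcripts. Most of the 41 changed by under 2-fold between KO and WT, and could be listed only through a comparison with OX. This count was therefore partly fixed by how transcripts were listed.

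The KEGG maps hold many of the same transcripts. Of 9 antenna transcripts, 8 lower calls were made, with log2 fold changes from -0.81 to -0.39 and a median of -0.65. Of 21 on the photosynthesis map, 1 higher and 17 lower calls were made. Chlorophyll and carotenoid genes gave 0 higher and 3 lower calls of 9 tested. Subunit H of magnesium chelatase, the enzyme that commits protoporphyrin to chlorophyll, was Os03g0323200, with 2894 and 2985 CPM in KO, against 4879.8 and 4710.3 CPM in WT (log2 fold change -0.71, SE 0.05, adjusted p = 0.00112). Glutamyl-tRNA reductase 2, at the start of the pathway, was Os10g0502400, with 932 and 908.2 CPM in KO, against 1324 and 1364 CPM in WT (log2 fold change -0.55, SE 0.04, adjusted p = 0.000776).

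Starch and sugar genes went both ways. Of 36 tested, 14 higher (7 leaving out KO 1, 8 leaving out KO 2, 9 leaving out WT 1) and 5 lower (3 leaving out KO 2 or WT 1) calls were made (8 and 11 with DESeq2 size factors). A beta-amylase, Os03g0141200, which breaks down starch, had 369.9 and 357 CPM in KO, against 125 and 128 CPM in WT (log2 fold change 1.52, SE 0.04, adjusted p = 6.38e-05). The neutral invertase-like Os01g0332100 had 943 and 925 CPM in KO, against 482 and 473 CPM in WT (log2 fold change 0.97, SE 0.04, adjusted p = 0.000153). Starch synthase I, Os06g0160700, had 68.2 and 68.0 CPM in KO, against 148 and 136 CPM in WT (log2 fold change -1.06, SE 0.06, adjusted p = 0.000427). Granule-bound starch synthase Ib, Os07g0412100, had 1206 and 1199 CPM in KO, against 1935 and 1841 CPM in WT (log2 fold change -0.65, SE 0.05, adjusted p = 0.000865). Thus 2 named synthases were lower, and the named amylase higher. Another neutral invertase, Os04g0432400, had 31.6 and 32.9 CPM in KO, against 67.5 and 69.6 CPM in WT (log2 fold change -1.09, SE 0.08, adjusted p = 0.0011).

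Most nitrate assimilation transcripts rose. Nitrate reductase and nitrite reductase carry out the successive steps that turn nitrate into ammonium. Of 8 tested transcripts of these enzymes, 6 higher and 0 lower calls were made, and 6 higher and 1 lower with DESeq2 size factors. The nitrate reductase Os02g0770800 (chromosome 2, 32513749 to 32517155) had 84.5 and 83.8 CPM in KO, against 11.9 and 11.4 CPM in WT (log2 fold change 2.85, SE 0.08, adjusted p = 6.75e-05). The nitrate reductase Os08g0468100 (chromosome 8, 23033230 to 23038506) had 556 and 574 CPM in KO, against 255 and 275 CPM in WT (log2 fold change 1.09, SE 0.07, adjusted p = 0.000561). Its relative Os08g0468700 (chromosome 8, 23051707 to 23055631) had 351 and 357 CPM in KO, against 163 and 178 CPM in WT (log2 fold change 1.05, SE 0.07, adjusted p = 0.000735). These 2 lie close together and are alike in description, so reads may be shared between them. A nitrite reductase, transcript 02 of Os01g0357100, had 724 and 713 CPM in KO, against 370.5 and 423 CPM in WT (log2 fold change 0.86, SE 0.07, adjusted p = 0.00148). In the wider nitrogen list 9 higher and 4 lower (0 leaving out KO 1 or KO 2, 1 leaving out WT 1, 2 leaving out WT 2, OX 1 or OX 2) calls were made of 28 (7 and 8 with DESeq2 size factors and 11 and 2 with plain totals). In the phosphate list 4 higher (0 leaving out KO 1 or KO 2, 2 leaving out WT 2) and 1 lower calls were made of 17 (0 and 2 with DESeq2 size factors). The phosphate list's shares were 23.5% higher and 5.88% lower, beside 25.0% and 11.0% over all tested transcripts. Its lower call was the phosphate transporter Os02g0593500, with 299 and 296 CPM in KO, against 575 and 572 CPM in WT (log2 fold change -0.95, SE 0.04, adjusted p = 0.000214). Metal genes gave 9 higher and 7 lower (4 leaving out KO 1 or KO 2) calls of 39 (6 and 14 with DESeq2 size factors and 11 and 5 with plain totals). The metal list's shares were 23.1% higher and 17.9% lower, beside the same 25.0% and 11.0%. A type 3 metallothionein, Os01g0200700, a metal-binding protein, had 12376 and 12194 CPM in KO, against 18164 and 17192 CPM in WT (log2 fold change -0.53, SE 0.04, adjusted p = 0.000824).

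Among flavonoid genes, which the title names, calls went both ways, and their balance differed between the list by description and the KEGG map. Of 19 tested, 2 higher and 5 lower calls were made, median -0.42 (2 and 9 with DESeq2 size factors and 4 and 5 with plain totals). On the KEGG map of flavonoid biosynthesis, whose membership differs, 3 higher (1 leaving out KO 1, KO 2, WT 1 or WT 2) and 1 lower calls were made of 14, median 0.25 (1 and 3 with DESeq2 size factors). The chalcone isomerase domain gene Os06g0203600 had 33.8 and 31.9 CPM in KO, against 2.25 and 2.18 CPM in WT (log2 fold change 3.89, SE 0.11, adjusted p = 6.63e-05). A leucoanthocyanidin dioxygenase-like gene, Os03g0289800, had 4.41 and 5.41 CPM in KO, against 0.465 and 0.628 CPM in WT (log2 fold change 3.16, SE 0.27, adjusted p = 0.00159). On the other side, flavanone 2-hydroxylase CYP93G2, Os06g0102100, which leads to C-glycosyl flavones, had 2.11 and 2.78 CPM in KO, against 10.5 and 10.9 CPM in WT (log2 fold change -2.13, SE 0.16, adjusted p = 0.00113). Os11g0530600, similar to the chalcone synthase that opens the pathway, had 0.767 and 0.548 CPM in KO, against 2.48 and 3.23 CPM in WT (log2 fold change -2.11, SE 0.24, adjusted p = 0.0049). A chalcone isomerase, transcript 02 of Os03g0819600, which takes the next step, had 9.74 and 7.82 CPM in KO, against 16 and 19.1 CPM in WT (log2 fold change -1.0, SE 0.16, adjusted p = 0.0188; not called: adjusted p 0.0513 with the KO and WT libraries alone, 0.102 without KO 2 and 0.0817 without WT 2). The member with the highest CPM, the flavonoid 3-monooxygenase-like Os08g0547900, had 143 and 152 CPM in KO, against 323 and 339 CPM in WT (log2 fold change -1.17, SE 0.07, adjusted p = 0.000382). In OX chalcone synthase stood at 26.3 and 30.6 CPM and the chalcone isomerase domain gene at 15.0 and 14.9 CPM. Since the title names the pathway, this list gives no independent evidence on its direction.

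Phenylpropanoid and lignin genes upstream of flavonoids gave 13 higher and 4 lower (2 leaving out KO 1, KO 2, WT 1 or OX 2) calls of 31 tested, median 0.96 (10 and 7 with DESeq2 size factors and 15 and 2 with plain totals). Phenylalanine ammonia-lyase, Os04g0518400, the entry enzyme, had 33.9 and 34.2 CPM in KO, against 8.79 and 10.3 CPM in WT (log2 fold change 1.83, SE 0.10, adjusted p = 0.000348). Os06g0656500, similar to 4-coumarate-CoA ligase 1, which activates cinnamic acids, had 52.2 and 48.3 CPM in KO, against 18.8 and 20.2 CPM in WT (log2 fold change 1.36, SE 0.09, adjusted p = 0.000705). The cinnamyl alcohol dehydrogenase Os09g0400300, of lignin synthesis, had 179 and 178 CPM in KO, against 299.8 and 329 CPM in WT (log2 fold change -0.82, SE 0.06, adjusted p = 0.00104). UDP-glycosyltransferases were called lower more often than higher, with 5 higher (2 leaving out KO 1 or WT 1, 1 leaving out KO 2, 3 leaving out OX 1 or OX 2) and 20 lower calls of 57, median -0.76. Os02g0206700, of that family, had 35.7 and 37.0 CPM in KO, against 108 and 117 CPM in WT (log2 fold change -1.63, SE 0.07, adjusted p = 0.000156). Cytochromes P450 gave 11 higher and 15 lower calls of 72 (7 and 26 with DESeq2 size factors and 16 and 13 with plain totals). Among them Os09g0528700, similar to CYP78A9, of a family that promotes organ growth in Arabidopsis, had 40.4 and 39.7 CPM in KO, against 163 and 172 CPM in WT (log2 fold change -2.07, SE 0.08, adjusted p = 0.00013). Terpenoid genes gave 3 higher and 0 lower calls of 13 (2 and 2 with DESeq2 size factors). Their share of higher calls, 23.1%, was below the 25.0% over all tested transcripts. The sesquiterpene synthase Os08g0167800 had 40.4 and 40.7 CPM in KO, against 11.5 and 11.9 CPM in WT (log2 fold change 1.79, SE 0.05, adjusted p = 6.19e-05), with 1089 and 1041 CPM in OX.

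On the broad KEGG maps of metabolism calls went both ways. Transcripts called higher were 28.2% of metabolic pathways, 30.3% of secondary metabolites and 23.9% of carbon metabolism, beside 25.0% over all tested transcripts. Those called lower were 17.4%, 13.9% and 19.6% in that order, beside 11.0% over all tested transcripts. The map of metabolic pathways gave 126 higher and 78 lower (45 leaving out KO 1, 49 leaving out KO 2, 51 leaving out WT 2) calls of 447 (87 and 139 with DESeq2 size factors and 157 and 58 with plain totals), and that of secondary metabolites 83 higher and 38 lower (22 leaving out KO 1, 24 leaving out KO 2) calls of 274 (57 and 77 with DESeq2 size factors). Carbon metabolism gave 11 higher (6 leaving out KO 1, 7 leaving out KO 2 or WT 2) and 9 lower calls of 46 (5 and 15 with DESeq2 size factors and 16 and 8 with plain totals). Of the narrower maps, amino sugar and nucleotide sugar metabolism, which holds chitinases and makers of wall precursors, gave 17 higher and 2 lower (1 leaving out KO 1, KO 2 or WT 2) calls of 39 (12 and 7 with DESeq2 size factors), with a median of 0.99. Alpha-linolenic acid metabolism, the source of jasmonate, gave 7 higher and 3 lower calls of 13. Endocytosis gave 9 higher and 1 lower calls of 16 (6 and 2 with DESeq2 size factors), with a median of 1.29. On the other side, glutathione metabolism gave 2 higher (1 leaving out KO 1, KO 2, WT 1, OX 1 or OX 2) and 6 lower (3 leaving out KO 1) calls of 25 (1 and 13 with DESeq2 size factors and 3 and 5 with plain totals), with a median of -0.43, and porphyrin and chlorophyll metabolism gave 2 higher (1 leaving out KO 1, KO 2, WT 1 or WT 2) and 5 lower calls of 12 (1 and 6 with DESeq2 size factors and 5 and 4 with plain totals).

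Among cytokinin genes more were called lower than higher. A-type response regulators are induced by cytokinin and dampen its signal, and B-type ones transmit it. Of 7 tested response regulators, 1 higher (0 leaving out KO 1 or KO 2) and 3 lower calls were made. The A-type gene Os01g0952500 had 59.5 and 61.6 CPM in KO, against 138 and 134 CPM in WT (log2 fold change -1.16, SE 0.06, adjusted p = 0.000267). Another, Os04g0673300, had 8.32 and 10.3 CPM in KO, against 30.1 and 30.9 CPM in WT (log2 fold change -1.71, SE 0.15, adjusted p = 0.00198). Transcript 02 of the A-type gene Os02g0557800 had 142 and 136 CPM in KO, against 194 and 205 CPM in WT (log2 fold change -0.52, SE 0.07, adjusted p = 0.0107; not called: adjusted p 0.0599 to 0.0908 without KO 1, KO 2 or WT 2). The B-type gene Os03g0224200 had 102 and 99 CPM in KO, against 24.5 and 36.7 CPM in WT (log2 fold change 1.72, SE 0.23, adjusted p = 0.0114; not called: adjusted p 0.0666 without KO 1 and 0.0619 without KO 2). The 3 falls were A-type and the rise B-type. The zeatin map, on cytokinin synthesis and breakdown, gave 1 higher and 4 lower (2 leaving out KO 1 or KO 2) calls of 10 tested, with a median of -1.64. On it the cytokinin dehydrogenase 2-like Os05g0374200 had 15.7 and 16.1 CPM in KO, against 35.4 and 35.7 CPM in WT (log2 fold change -1.16, SE 0.14, adjusted p = 0.00665; not called: adjusted p 0.0599 without KO 1 and 0.0556 without KO 2). The tRNA isopentenyltransferase Os05g0551700 had 1.19 and 1.65 CPM in KO, against 6.23 and 6.20 CPM in WT (log2 fold change -2.13, SE 0.42, adjusted p = 0.0358; not called: adjusted p 0.124 to 0.203 without KO 1, KO 2, WT 1 or WT 2).

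Auxin genes moved both ways, with 10 higher (6 leaving out KO 1 or KO 2) and 11 lower (5 leaving out KO 1, 6 leaving out KO 2 or WT 2) calls of 42 tested (6 and 12 with DESeq2 size factors). Higher calls made up 23.8% of the auxin list and lower calls 26.2%, beside 25.0% and 11.0% over all tested transcripts. The auxin response factor 2-like Os01g0927600 had 677 and 686 CPM in KO, against 314 and 301 CPM in WT (log2 fold change 1.15, SE 0.04, adjusted p = 0.000103). The auxin response factor 8-like Os02g0628600 had 15.2 and 15.2 CPM in KO, against 32.8 and 37.1 CPM in WT (log2 fold change -1.20, SE 0.10, adjusted p = 0.00174). The SAUR gene Os10g0510500, of an auxin-induced growth family, had 120.2 and 115 CPM in KO, against 331 and 340.3 CPM in WT (log2 fold change -1.52, SE 0.05, adjusted p = 8.38e-05). Gibberellin genes gave 1 higher (2 leaving out KO 1, 0 leaving out KO 2, WT 1 or WT 2) and 0 lower (1 leaving out KO 1) calls of 8. The call was the transcription activator Os02g0776900, with 1.46 and 2.27 CPM in KO, against 0.232 and 0.168 CPM in WT (log2 fold change 3.19, SE 0.51, adjusted p = 0.0174; not called: adjusted p 0.0832 to 0.111 without KO 2, WT 1 or WT 2).

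On the KEGG map of plant hormone signal transduction as a whole, 25 higher (16 leaving out KO 1) and 8 lower calls were made of 62, median 0.59 (19 and 17 with DESeq2 size factors).

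Flowering genes were called lower more often than higher. Of 15 tested, 1 higher (0 leaving out KO 1, KO 2, WT 1, WT 2, OX 1 or OX 2) and 6 lower (2 leaving out KO 1, 3 leaving out KO 2 or WT 2) calls were made, median -0.60 (0 and 6 with DESeq2 size factors and 2 and 6 with plain totals). OsMADS18, Os07g0605200, a MADS-box gene that promotes the switch to flowering, had 51.7 and 51.7 CPM in KO, against 93.1 and 91.7 CPM in WT (log2 fold change -0.84, SE 0.06, adjusted p = 0.000681). Its OsMADS14-like relative Os03g0752800 had 4.72 and 4.35 CPM in KO, against 11.5 and 11.2 CPM in WT (log2 fold change -1.33, SE 0.20, adjusted p = 0.0137; not called: adjusted p 0.0683 to 0.101 without KO 1, KO 2, WT 1 or WT 2). CONSTANS-like genes are relatives of the Arabidopsis gene that reads day length. Among them Os02g0178100 had 108 and 112 CPM in KO, against 173 and 194 CPM in WT (log2 fold change -0.73, SE 0.09, adjusted p = 0.00549; not called: adjusted p 0.0538 without KO 1). Os02g0610500, described as constitutive for flowering repression, had 95.0 and 100.2 CPM in KO, against 147 and 159.7 CPM in WT (log2 fold change -0.65, SE 0.07, adjusted p = 0.0047). Os03g0711100 had 314 and 320.3 CPM in KO, against 459 and 503 CPM in WT (log2 fold change -0.60, SE 0.08, adjusted p = 0.0101; not called: adjusted p 0.0532 to 0.0807 without KO 1, KO 2 or WT 2). All 3 were lower, whereas transcript 02 of Os05g0595300 was not called, with 68.4 and 64.4 CPM in KO, against 57.0 and 50.8 CPM in WT (log2 fold change 0.30, SE 0.08, adjusted p = 0.103; called: adjusted p 0.0241 with plain totals, 0.0439 with the DESeq2 Wald test and 0.05 with the replicate block). SP3D is the florigen gene of tomato, and 3 listed transcripts are similar to it. Os06g0157700 had 29.6 and 26.0 CPM in KO, against 40.2 and 43.3 CPM in WT (log2 fold change -0.59, SE 0.24, adjusted p = 0.358; called: adjusted p 0.048 with the KO and WT libraries alone and 0.0114 with the DESeq2 Wald test), and in OX it stood at 0.315 and 0.643 CPM, below both KO libraries. Os06g0552900 had 0.920 and 1.06 CPM in KO, against 3.06 and 4.44 CPM in WT (log2 fold change -1.91, SE 0.38, adjusted p = 0.0363; not called: adjusted p 0.0666 to 0.202 without KO 1, KO 2, WT 1 or WT 2). Transcript 02 of Os01g0218500 had 0.920 and 0.512 CPM in KO, against 1.43 and 0.922 CPM in WT (log2 fold change -0.72, SE 0.48, adjusted p = 0.989). The rise of the list was the PEBP domain gene Os05g0468800, with 4.41 and 4.13 CPM in KO, against 1.94 and 1.76 CPM in WT (log2 fold change 1.21, SE 0.20, adjusted p = 0.0209; not called: adjusted p 0.0582 to 0.11 without KO 1, KO 2, WT 1, WT 2, OX 1 or OX 2, 0.129 with DESeq2 size factors, 0.0849 with TMM, 0.0639 with the KO and WT libraries alone and 0.0577 with the replicate block). The remaining members were not called and had log2 fold changes of 2.05 (Os04g0614100; called: adjusted p 0.0346 with the DESeq2 Wald test and 0.0391 with the replicate block), 0.65 (Os08g0174500), -0.47 (Os03g0215400), -1.36 (Os08g0494100) and 0.19 (Os08g0531900). Adjusting over the listed transcripts alone also gave calls for Os04g0614100 (adjusted p = 0.0228) and Os08g0494100 (adjusted p = 0.0398), and the sign of Os08g0174500 and Os08g0531900 turned when 1 KO library was left out.

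On the KEGG map of the plant circadian clock, 1 higher (0 leaving out KO 2, WT 1 or WT 2) and 3 lower (1 leaving out WT 1 or WT 2) calls were made of 7 tested (0 and 5 with DESeq2 size factors). The map includes the chalcone synthase and the first 2 SP3D-like genes given above. Os09g0532400, a response regulator domain gene, had 139 and 174 CPM in KO, against 273 and 272 CPM in WT (log2 fold change -0.80, SE 0.11, adjusted p = 0.0109; not called: adjusted p 0.0765 without WT 1 and 0.0758 without WT 2). Os02g0618200, of the same description, had 11.1 and 13.2 CPM in KO, against 12.6 and 14.5 CPM in WT (log2 fold change -0.15, SE 0.14, adjusted p = 1; called: adjusted p 0.0465 with DESeq2 size factors). The CCT motif gene Os11g0157600 had 48.0 and 54.3 CPM in KO, against 37.0 and 36.4 CPM in WT (log2 fold change 0.48, SE 0.08, adjusted p = 0.0231; not called: adjusted p 0.0969 to 0.118 without KO 2, WT 1 or WT 2, 1 with DESeq2 size factors, 1 with TMM, 0.0575 with the KO and WT libraries alone and 0.0545 with the replicate block). The TCP domain gene Os02g0828566 had 15.0 and 17.1 CPM in KO, against 18.9 and 19.5 CPM in WT (log2 fold change -0.26, SE 0.12, adjusted p = 0.458; called: adjusted p 0.0165 with DESeq2 size factors and 0.0256 with TMM). Sampling time of day is not given in the labels.

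Histones were called lower more often than higher, and cyclins the reverse. Linker histone H1 binds between nucleosomes, and core histones form them. The 3 listed histone H1 transcripts gave 3 lower calls, also under the 3 other scalings and in the 6 fits that left out 1 library. Os04g0253000 (chromosome 4, 9993501 to 9994503) had 212 and 205 CPM in KO, against 727 and 779 CPM in WT (log2 fold change -1.85, SE 0.05, adjusted p = 6.38e-05). Os03g0799000 (chromosome 3, 33304497 to 33305962) had 43.6 and 43.9 CPM in KO, against 241 and 277 CPM in WT (log2 fold change -2.57, SE 0.09, adjusted p = 9.05e-05). Os07g0184800 had 44.1 and 44.0 CPM in KO, against 128 and 148 CPM in WT (log2 fold change -1.65, SE 0.08, adjusted p = 0.000282). In OX these 3 stood at 337 and 345 CPM, 95.7 and 102 CPM and 87.1 and 90.3 CPM. Core histones gave 1 higher (0 leaving out KO 1, KO 2, WT 1 or WT 2) and 6 lower calls of 11 tested, median -1.05. The histone H4 gene Os10g0539500 had 43.2 and 41.0 CPM in KO, against 115 and 112 CPM in WT (log2 fold change -1.43, SE 0.09, adjusted p = 0.000459).

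Cyclins, which drive the cell cycle, gave 6 higher and 0 lower calls of 11 tested, median 1.07 (5 and 1 with DESeq2 size factors). The cyclin B gene Os02g0801200 had 36.7 and 37.8 CPM in KO, against 18.4 and 17.1 CPM in WT (log2 fold change 1.07, SE 0.08, adjusted p = 0.00121). Os02g0800500 and Os02g0801300, of near gene numbers and like descriptions, were also called higher, with log2 fold changes of 1.04 and 1.09. Reads may be shared between these genes, so their calls may not be separate rises. The cyclin D gene Os03g0203800 had 56.3 and 53.8 CPM in KO, against 25.1 and 26.7 CPM in WT (log2 fold change 1.09, SE 0.09, adjusted p = 0.00149). Over the whole list of dividing-cell markers, to which histones and cyclins belong, 12 higher (6 leaving out KO 1, KO 2 or WT 2, 7 leaving out WT 1) and 9 lower calls were made of 43 (6 and 10 with DESeq2 size factors). That list's shares were 27.9% higher and 20.9% lower, beside 25.0% and 11.0% over all tested transcripts. Its summed level was 928.6 and 903 CPM in KO, against 1624 and 1723 CPM in WT.

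**Figure D4:**
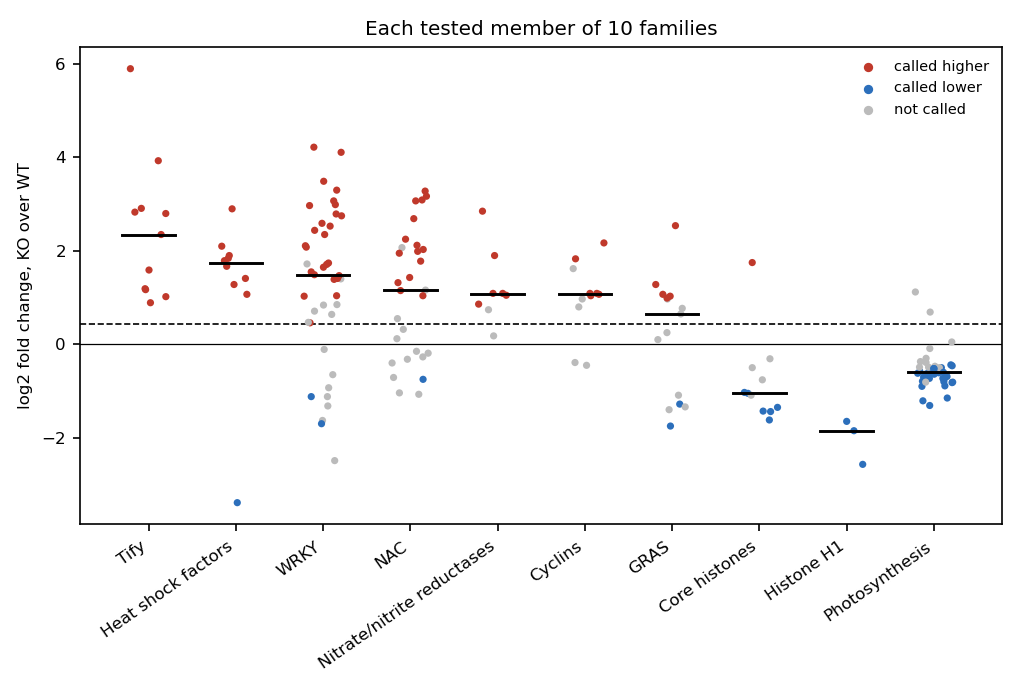
Each point is 1 tested transcript of 10 families, with its log2 fold change, KO over WT, coloured red where called higher, blue where called lower and grey where not called. Black bars are family medians, from 2.35 for Tify to -1.85 for histone H1, and the dashed line is the median of all tested transcripts, 0.43.

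The cell wall list gave 6 higher and 1 lower (0 leaving out KO 1, KO 2, WT 1 or WT 2) calls of 27 (4 and 2 with DESeq2 size factors), and its share of higher calls, 22.2%, was below the 25.0% over all tested transcripts. Among xyloglucan enzymes 5 higher and 0 lower calls were made of 6. They comprise endotransglucosylases, which cut and rejoin xyloglucan chains, and transferases that add sugars to them, of which the 6-xylosyltransferase-like Os03g0300000 was called higher and the fucosyltransferase Os02g0275200 was not called. The endotransglucosylase homolog Os06g0696600 had 38.8 and 40.9 CPM in KO, against 9.02 and 9.05 CPM in WT (log2 fold change 2.14, SE 0.09, adjusted p = 0.000161). The fall of the wall list was the alpha-expansin OsEXPA4, Os05g0477600, with 0.537 and 0.622 CPM in KO, against 2.21 and 2.35 CPM in WT (log2 fold change -1.97, SE 0.30, adjusted p = 0.0138; not called: adjusted p 0.0649 to 0.0921 without KO 1, KO 2, WT 1 or WT 2). Os03g0837100, described as similar to a cellulose synthase-6, had 38.5 and 32.7 CPM in KO, against 3.41 and 2.51 CPM in WT (log2 fold change 3.58, SE 0.22, adjusted p = 0.000542). Transcript 01 of Os07g0252400, described as similar to a cellulose synthase-8, had 12.4 and 13.0 CPM in KO, against 3.87 and 3.14 CPM in WT (log2 fold change 1.85, SE 0.15, adjusted p = 0.00133). Pentatricopeptide repeat proteins, which process organelle RNA, gave 3 higher and 7 lower (2 leaving out KO 1 or KO 2, 4 leaving out WT 1, WT 2 or OX 1, 3 leaving out OX 2) calls of 46, median -0.79 (2 and 13 with DESeq2 size factors). The member with the highest CPM, Os04g0583101, had 233 and 229.5 CPM in KO, against 496 and 497 CPM in WT (log2 fold change -1.10, SE 0.04, adjusted p = 9.64e-05).

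Markers of other tissues gave few values. A list meant for secondary wall and vascular markers summed to 113 and 111.2 CPM in KO, against 58.0 and 61.0 CPM in WT. It gave 3 higher and 0 lower calls of 14, all 3 of them cellulose synthases. Of the 14, 11 are cellulose synthases, among them those described with the wall genes, so the list is not a reading separate from those genes. Their descriptions do not say which of them serve the secondary wall, so the sum is no reading of that wall or of vasculature. Pollen and anther markers summed to 68.8 and 68.8 CPM in KO, against 16.4 and 13.7 CPM in WT, with 2 higher (1 leaving out KO 1, KO 2 or WT 2) and 0 lower calls of 6. Most of that sum was Os03g0388500, similar to the anther ethylene-upregulated protein ER1, with 52.3 and 58.0 CPM in KO, against 10.9 and 8.92 CPM in WT (log2 fold change 2.47, SE 0.13, adjusted p = 0.000282). This gene entered the list by its description alone, so the sum is no reading of pollen or anther tissue. The root list held only 2 nitrate transporters, summing to 0.422 and 0.695 CPM in KO, against 1.36 and 1.21 CPM in WT. No listed description matched the meristem and leaf-base markers. The part of cell-type makeup in the results above was not tested, and fewer cells of a type and less RNA per cell cannot be told apart in bulk leaves.

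For 10 genes, 1 transcript was called higher and another lower. Os06g0199200, with a Smr domain (chromosome 6, 5036133 to 5041239), showed the largest shift. Its transcript 01 had 0.575 and 1.28 CPM in KO, against 161 and 147 CPM in WT (log2 fold change -7.36, SE 0.67, adjusted p = 0.00322). Its transcript 04 had 241 and 235 CPM in KO, against 44.3 and 51.2 CPM in WT (log2 fold change 2.32, SE 0.08, adjusted p = 0.000102). The 3 listed transcripts together held 242.2 and 237 CPM in KO, against 205 and 198 CPM in WT, so the sum differed far less than either transcript. In OX transcript 01 stood at 2.61 and 0.877 CPM and transcript 04 at 181 and 187 CPM. Os05g0119300, described by expressed sequence tags only (chromosome 5, 1000598 to 1002757), had 1491 and 1466 CPM in KO, against 591.8 and 620.2 CPM in WT (log2 fold change 1.29, SE 0.05, adjusted p = 0.00013) for transcript 01. Its transcript 03 had 111 and 114 CPM in KO, against 416 and 442 CPM in WT (log2 fold change -1.94, SE 0.06, adjusted p = 8.03e-05). Its sum was 1602 and 1579.7 CPM in KO, against 1007 and 1063 CPM in WT.

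Transcript 03 of Os01g0800300 (chromosome 1, 33890104 to 33891417) had 0.230 and 0.366 CPM in KO, against 6.43 and 9.43 CPM in WT (log2 fold change -4.71, SE 0.38, adjusted p = 0.00125). Transcript 01 had 11.0 and 10.9 CPM in KO, against 0.697 and 1.01 CPM in WT (log2 fold change 3.68, SE 0.22, adjusted p = 0.000497). The 2 together held 11.2 and 11.3 CPM in KO, against 7.13 and 10.4 CPM in WT. Os09g0135800, an armadillo-like protein, had 20.8 and 21.4 CPM in KO, against 1.82 and 2.72 CPM in WT (log2 fold change 3.22, SE 0.23, adjusted p = 0.000816) for transcript 01. Its transcript 02 had 0.345 and 0.256 CPM in KO, against 2.79 and 2.64 CPM in WT (log2 fold change -3.16, SE 0.63, adjusted p = 0.0376; not called: adjusted p 0.126 to 0.213 without KO 1, KO 2, WT 1 or WT 2 and 0.0726 with the replicate block). For Os11g0586900, similar to ADP-ribosylation factor-like protein 5, transcript 02 had 4.26 and 3.47 CPM in KO, against 0.232 and 0.293 CPM in WT (log2 fold change 3.86, SE 0.33, adjusted p = 0.0017). Its transcript 01 had 7.63 and 7.64 CPM in KO, against 16.1 and 15.5 CPM in WT (log2 fold change -1.05, SE 0.12, adjusted p = 0.00424). The MuDR transposase gene Os06g0704400 had 34.4 and 30.6 CPM in KO, against 18.2 and 15.9 CPM in WT (log2 fold change 0.93, SE 0.11, adjusted p = 0.00512; not called: adjusted p 0.0889 with DESeq2 size factors) for transcript 02. For transcript 01 of the gene the values were 8.90 and 11.1 CPM in KO, against 37.4 and 31.3 CPM in WT (log2 fold change -1.78, SE 0.16, adjusted p = 0.00198). The DnaJ-type chaperone Os03g0244000 had 23.7 and 24.6 CPM in KO, against 8.71 and 7.25 CPM in WT (log2 fold change 1.60, SE 0.22, adjusted p = 0.00931; not called: adjusted p 0.0584 to 0.0655 without KO 1, KO 2 or WT 2) for transcript 01. For transcript 02 they were 66.8 and 70.2 CPM in KO, against 141 and 139.8 CPM in WT (log2 fold change -1.04, SE 0.06, adjusted p = 0.000339). In the other 3 genes at least 1 of the opposite calls was lost under many alternatives. For Os06g0136000 the log2 fold change of transcript 01 was 1.62 (not called: adjusted p 0.05 to 0.177 without KO 1, KO 2, WT 1, WT 2, OX 1 or OX 2, 0.139 with DESeq2 size factors, 0.103 with TMM, 0.0552 with the KO and WT libraries alone and 0.0929 with the replicate block), and that of transcript 02 was -4.06 (not called: adjusted p 0.062 without KO 2). For Os06g0340200 it was 1.57 for transcript 02 (not called: adjusted p 0.0678 to 0.152 without KO 1, KO 2, WT 2, OX 1 or OX 2, 0.125 with DESeq2 size factors, 0.0926 with TMM and 0.094 with the KO and WT libraries alone) and -1.90 for transcript 01 (not called: adjusted p 0.0591 to 0.159 without KO 1, WT 1, WT 2, OX 1 or OX 2 and 0.0913 with the KO and WT libraries alone). For Os07g0673400 it was 1.4 for transcript 01 (not called: adjusted p 0.0661 without KO 1) and -1.44 for transcript 02 (not called: adjusted p 0.0519 to 0.193 without KO 1, KO 2, WT 1, WT 2, OX 1 or OX 2, 0.0604 with plain totals and 0.0636 with the replicate block). How reads were assigned to transcripts that share exons is not given in the sources used here, so a shift between transcripts of 1 gene rests on that assignment. Transcripts of 1 gene that are not listed were not analysed here.

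**Figure D5:**
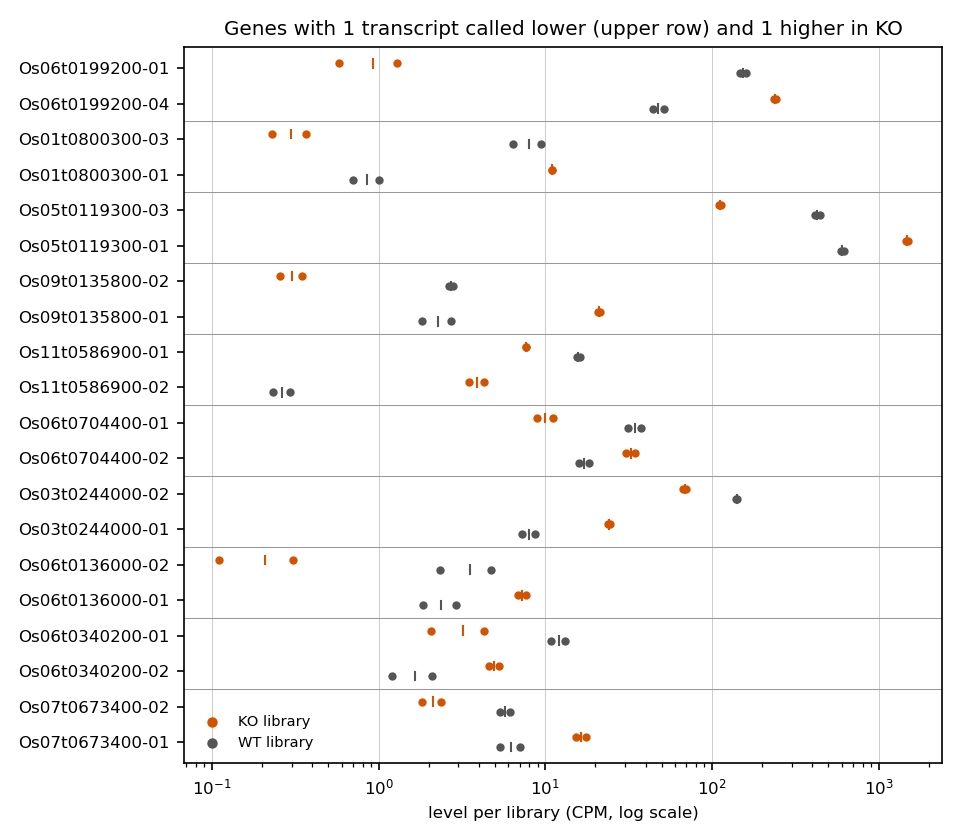
Pairs of rows are transcripts of 1 gene, the upper called lower in KO and the other called higher, with the level in each library in CPM on a log axis, KO libraries in orange above WT libraries in grey. Transcript 01 of Os06g0199200 stands at 0.575 and 1.28 CPM in KO, against 161 and 147 CPM in WT. In no row do the groups overlap, which follows largely from choosing rows by their calls. Over all tested transcripts, both KO libraries lay above both WT libraries in 49.5% and below them in 29.8%.

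Noncoding transcripts by description gave 29 higher (16 leaving out KO 1, 14 leaving out KO 2, 18 leaving out WT 1, 19 leaving out WT 2) and 6 lower (2 leaving out KO 1, KO 2, WT 2 or OX 2, 3 leaving out WT 1 or OX 1) calls of 153 tested (17 and 20 with DESeq2 size factors). These higher and lower calls were 19.0% and 3.92% of the list, below the 25.0% and 11.0% over all tested transcripts. Os06g0318800, with the highest CPM of the noncoding transcripts, had 108 and 117 CPM in KO, against 23.5 and 33.3 CPM in WT (log2 fold change 1.99, SE 0.18, adjusted p = 0.00293). Os03g0741050 (chromosome 3, 30403047 to 30405978) had 32.1 and 32.0 CPM in KO, against 5.42 and 5.28 CPM in WT (log2 fold change 2.58, SE 0.13, adjusted p = 0.000299). It ends before the bHLH gene Os03g0741100 (chromosome 3, 30406830 to 30409342), which rose too, begins, and whether reads were counted by strand is not given. For the next 2 lists the shares over all tested transcripts are 25.0% higher and 11.0% lower. They were 28.6% and 7.14% for transposon-related transcripts and 18.2% and 13.6% for wax and lipid transfer genes. Transposon-related transcripts gave 4 higher (1 leaving out KO 1, 2 leaving out KO 2) and 1 lower calls of 14 (1 and 2 with DESeq2 size factors). Wax and lipid transfer genes gave 4 higher (1 leaving out KO 1, WT 1 or WT 2, 0 leaving out KO 2) and 3 lower (1 leaving out KO 1, OX 1 or OX 2, 0 leaving out KO 2, WT 1 or WT 2) calls of 22 (0 and 4 with DESeq2 size factors and 4 and 1 with plain totals), and aquaporins 0 higher and 1 lower (0 leaving out KO 1, KO 2 or WT 2, 2 leaving out OX 1 or OX 2) calls of 3.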

How the data were processed

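RNA from leaves of 6 rice libraries was sequenced after preparation with the TruSeq stranded mRNA kit, per the labels' protocols. The submitters' processing notes name the genome build IRGSP-1.0. How reads were aligned and counted, and whether by strand, is not given in the sources used here. Reads may therefore be shared between overlapping or antisense transcripts, between near-identical copies and among a gene's transcripts. The deposited table gives, for each transcript, an estimated count, which from its values is the FPKM converted to reads and rounded up, so that the lowest is 1. The deposited FPKM and TPM values were made by the authors and served to recover library totals. The deposited normalised log2 values gave the authors' effective library totals, by which counts were scaled here. The deposited fold score (signed) and p-value columns served to count how a transcript entered the authors' deposited table, and the adjusted p-values also to infer how many transcripts the authors had tested.

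The deposited counts were whole numbers and were fitted with edgeR 4.0.16 in R 4.3.3 (quasi-likelihood test, default filter on low counts, genotype as the only term, all 6 libraries). P-values were adjusted by the Benjamini-Hochberg method over 27384 transcripts, with those outside the table counted as not significant. That number is inferred from the authors' deposited adjusted p-values for KO against WT. Those for KO against OX imply 24107, and 27384 was used there too. DESeq2 1.42.0 gave an alternative test. Within genotypes, log2 CPM correlated at 0.971 to 0.977, and pairs of libraries differed by more than sampling noise. With 2 against 2 libraries an exact test of a single value cannot fall below 0.333, so none was used.

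The comparison, the gene lists and their members were chosen with earlier results of these data known. Lists were revised after the descriptions were read, and several families (Tify, oxylipin enzymes, histones, cyclins, nitrate reductases, heat shock factors, protein phosphatases 2C, CBL-interacting kinases, xyloglucan enzymes) were added after values were seen. Named transcripts were the 12 largest rises and falls with at least 5 CPM in the higher group and an informative description, the most abundant calls, the 3 calls with the smallest p in each direction and the most abundant member of each list, every target, flowering and clock member, and genes with opposite calls. Others were chosen after their values were seen, namely Os01g0162400, Os01g0162500, Os08g0508800, Os03g0767000, Os03g0438100, Os05g0374200, Os05g0551700 and Os03g0819600. Lists are described by counts and medians. KEGG maps were used as the authors assigned them. Their enrichment tables were not used.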

Additional observations from a re-analysis of the deposited data

How the results depend on the processing

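Calls higher and lower in KO numbered 1758 and 776. They were 1111 and 1356 with DESeq2 size factors, 1225 and 1237 with TMM, 2064 and 612 with plain totals and 2414 and 1264 when p-values were adjusted over the listed transcripts only. Both DESeq2 size factors and TMM were computed from the listed transcripts alone, a selection for change. Other filters, the DESeq2 test, the KO and WT libraries alone and sums per gene gave 1455 to 2023 higher and 681 to 966 lower. Leaving out 1 library gave 1112 to 1484 higher and 433 to 674 lower. Of 162 transcripts named, 121 kept direction and side of the threshold under every alternative that gave a value. The direction turned for 7 results, none of them called with the turned sign. With DESeq2 size factors and TMM these were Os02g0662700 (-0.39 and -0.30), Os05g0595300 (-0.19 and -0.10), Os08g0531900 (-0.30 and -0.21) and Os10g0551200 (-0.24 and -0.15). The others were Os11g0157600 (-0.01 with DESeq2 size factors), Os02g0618200 (0.04 with plain totals), Os08g0531900 (-0.09 without KO 1 and 0.43 without KO 2) and Os08g0174500 (-0.14 without KO 2 and 1.16 without KO 1). The cause was not tested. Replicate numbers were not taken as pairs, since the deviations of KO 1 and WT 1 from their groups correlated at 0.023, and a replicate block gave 1504 higher and 654 lower. List counts were not run with sums per gene, and sums per gene give no value for a transcript. Depth limits calls at low level: below 1 CPM, 46 of 1304 tested were called higher and 24 lower.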
